A study of Mus musculus with 12 samples.

Results

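The genes examined here are *Arl6* and 9 other genes of the Bardet-Biedl group: 7 that encode subunits of the BBSome (*Bbs1*, *Bbs2*, *Bbs4*, *Bbs5*, *Bbs7*, *Bbs9* and *Ttc8*) and 2 that encode chaperonin-like proteins (*Mkks* and *Bbs10*). They were taken by symbol from a table of 28591 genes, in which all 10 were found. All 10 had a mean normalized count of at least 10 and were therefore among the 17768 genes tested. RNA sequencing covered the retinal pigment epithelium (RPE), the pigmented cell layer behind the photoreceptors, of 6 WT mice and 6 rd6 mice at 1 mo of age. The WT animals are labelled C57BL/6J and the rd6 animals carry the genotype *Mfrp* rd6/rd6, a recessive mutation of the gene for the membrane frizzled-related protein MFRP. For each library RNA was extracted from the RPE of both eyes together, collected from opened eyecups after the neural retina was taken off. The comparison asks how the RPE transcriptome differs in the absence of normal MFRP.

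The BBSome is a coat-like complex that moves membrane proteins into and out of the primary cilium, the antenna-like organelle that in photoreceptors forms the outer segment. ARL6, also known as BBS3, is a small GTPase that in its GTP-bound form recruits the BBSome to membranes, and it is not itself a subunit of the complex. MKKS (BBS6) and BBS10 work with BBS12 and the CCT chaperonin to assemble the core of the BBSome. Mutations in these genes cause Bardet-Biedl syndrome, in which the retina degenerates and obesity, kidney disease and extra digits occur. RPE cells carry a primary cilium during development, and many cilium genes have in their promoters an X-box, the DNA element bound by RFX transcription factors.

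In the RPE of rd6 mice *Arl6* rose 1.74-fold, and none of the other 9 genes passed the test. The count of 1 higher and 0 lower among 10 genes stood beside 11.4% of all genes tested that were higher and 11.6% that were lower at the same limit, so the group as a whole was not set apart by its number of calls. At an unadjusted p below 0.05 there were 2 of the 10, *Arl6* and *Mkks*, beside 35.3% of all genes tested. The median log2 fold change was 0.045 over the 10 genes, 0.017 over the 9 without *Arl6* and 0.005 over all genes tested. Without its direction, the median size of the change was 0.098 on the log2 scale for the 9 genes and 0.193 for all genes tested. Calls rest on q, the p-value of limma after Benjamini-Hochberg adjustment over all genes tested, with a limit of 0.05, and 23.0% of all genes were called in either direction.

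The promoters of *Arl6* and of the 3 members whose promoters hold an X-box are given first, to show the sequence context of the gene that changed beside that of members that did not pass the test. Each runs from 250 bases before to 50 bases after an annotated start in RefSeq (GRCm38.p6), 5′ to 3′ on the strand of the gene, and capitals mark an X-box match. The element was searched on both strands as GTNNCC, a spacer of 1 or 2 bases, and NGNAAC.
*Arl6*, chr16:59639360-59639659, minus strand: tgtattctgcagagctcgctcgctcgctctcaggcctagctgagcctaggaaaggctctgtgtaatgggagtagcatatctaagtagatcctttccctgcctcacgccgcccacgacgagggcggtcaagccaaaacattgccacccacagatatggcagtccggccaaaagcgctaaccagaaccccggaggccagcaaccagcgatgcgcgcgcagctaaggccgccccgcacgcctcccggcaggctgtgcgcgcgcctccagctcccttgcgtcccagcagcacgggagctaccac
*Bbs1*, chr19:4906578-4906877, minus strand: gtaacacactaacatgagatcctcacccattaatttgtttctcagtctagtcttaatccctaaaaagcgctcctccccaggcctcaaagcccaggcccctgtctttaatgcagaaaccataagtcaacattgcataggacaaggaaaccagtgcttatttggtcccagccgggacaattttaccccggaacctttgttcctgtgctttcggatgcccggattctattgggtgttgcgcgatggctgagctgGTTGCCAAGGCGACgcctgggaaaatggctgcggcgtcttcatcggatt
*Bbs4*, chr9:59353459-59353758, minus strand: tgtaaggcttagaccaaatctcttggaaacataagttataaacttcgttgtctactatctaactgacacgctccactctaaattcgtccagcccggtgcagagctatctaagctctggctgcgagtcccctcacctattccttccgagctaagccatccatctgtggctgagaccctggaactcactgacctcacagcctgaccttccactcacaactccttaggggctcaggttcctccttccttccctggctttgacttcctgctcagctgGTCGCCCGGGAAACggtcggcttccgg
*Bbs7*, chr3:36613340-36613639, minus strand: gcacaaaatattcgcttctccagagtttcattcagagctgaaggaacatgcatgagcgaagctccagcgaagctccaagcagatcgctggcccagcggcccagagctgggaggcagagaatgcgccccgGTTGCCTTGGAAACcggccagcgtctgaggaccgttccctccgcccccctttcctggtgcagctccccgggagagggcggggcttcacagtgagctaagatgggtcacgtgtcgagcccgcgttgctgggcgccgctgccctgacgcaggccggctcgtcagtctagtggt

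Promoters were listed for all 10 members, with 2 overlapping windows for *Arl6*. An X-box of either spacer was found in 3 of these 11 windows, beside 3.68% of the 32851 promoters of all genes. The *Bbs1* match, GTTGCCAAGGCGAC as printed, fits the pattern on the opposite strand and begins 1 base after the start base. The *Bbs4* match, GTCGCCCGGGAAAC, begins 23 bases after the start base, and the *Bbs7* match, GTTGCCTTGGAAAC, begins 121 bases before it. Neither window of *Arl6* held these letters, which says nothing of RFX binding there. The first 6 bases of the common form, GTTGCC, were found on either strand in 3 of the 11 windows and in 12.5% of all promoters. They overlap the longer match in *Bbs1* and *Bbs7* and stand without it in *Bbs5*.

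*Arl6* (ENSMUSG00000022722) lies on the minus strand of chromosome 16, from 59612949 to 59639391 (GRCm38, the assembly called mm10). Its normalized counts, which are reads divided by the size factor of the library, were 727.8, 701.8, 743.7, 634.2, 767.2 and 712.5 in WT replicates 1 to 6. In rd6 replicates 1 to 6 they were 1065, 1225, 1196, 1395, 1316 and 1281. The lowest rd6 library thus lay above the highest WT library, a separation in this direction that 5.77% of all genes tested also showed, with 5.67% separated the other way and 11.4% in all. The WT mean was 714.5 ± 45.7 (SD, n = 6), and the rd6 mean was 1246 ± 113 (SD, n = 6). The log2 fold change was 0.80 with a standard error of 0.07 (limma, q = 3.83e-06), and the 95% interval of the fold ran from 1.57 to 1.93. *Arl6* stood at place 145 of all genes tested by its p-value and at place 100 among those that were higher, and 844 called genes rose more. Its fold lay just under the limit of size that the study set, which is 0.81 on the log2 scale. Called genes past that limit made up 4.69% of the genes tested on the higher side and 2.12% on the lower. The reads of *Arl6* are summed over its transcripts, so that the longer, eye-enriched isoform known as BBS3L was not separated from the common form.

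**Figure D1:**
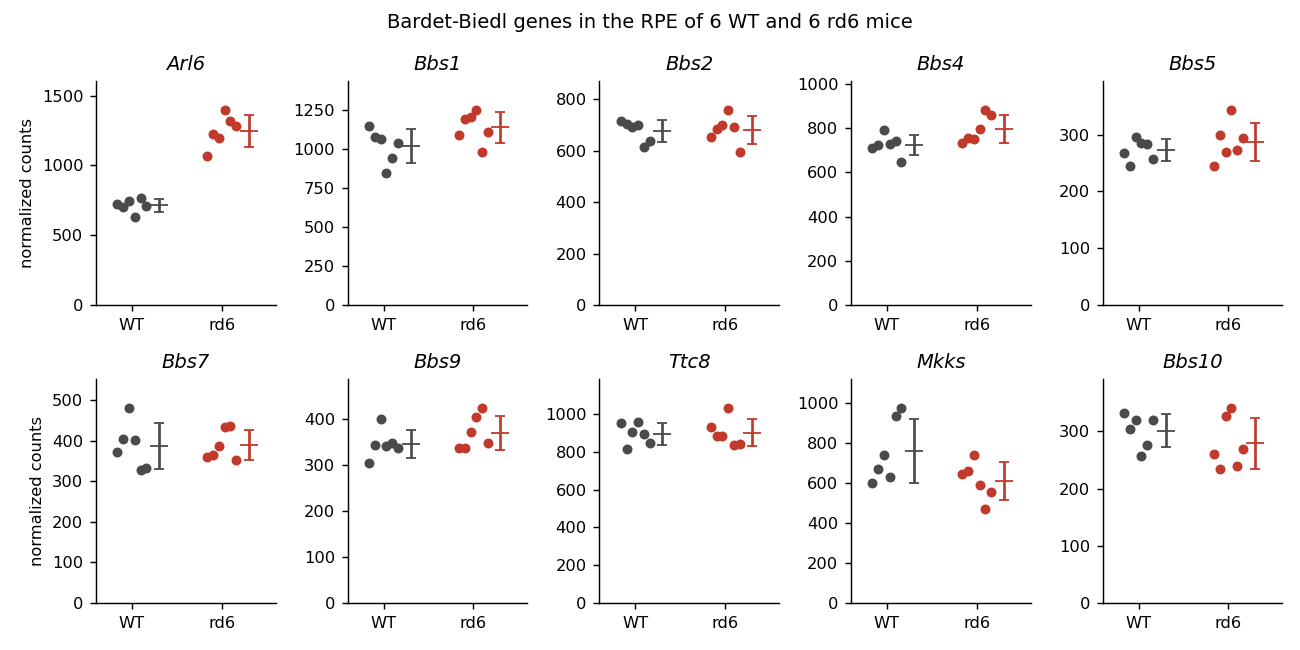
Normalized counts of the 10 genes in each library (points), with the mean and SD (n = 6) of WT in grey and rd6 in red, each panel on its own linear axis from 0. *Arl6* runs from 634 to 767 in WT and from 1065 to 1395 in rd6 without overlap, and the genotypes overlap in the other 9 panels.

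Markers of other cell types also differed between the genotypes. All 19 rod photoreceptor markers had negative log2 fold changes, 6 of them at q below 0.05, and their summed normalized counts ran from 97483 to 139985 in WT and from 55335 to 104035 in rd6. The rd6 library with the highest rod sum, replicate 5 with 104035, lay within the WT range of the sum and had 1316 normalized counts of *Arl6*. With the mean rod marker level of each library as a covariate the log2 fold change of *Arl6* was 0.79 (limma, q = 0.000113). On the log2 scale this mean level ran from 10.43 to 11.55 in WT, and of the rd6 libraries only replicate 5, at 11.43, reached that range. Rod level and genotype thus largely went together, so this fit cannot fully part them. Microglia and macrophage markers moved the other way, with 15 of 16 higher at q below 0.05 and sums of 14758 to 20818 in WT and 25776 to 40224 in rd6. *Csf1r*, the most abundant of them and most of the WT sum, was the exception, with means of 17256 and 18740 (limma, q = 0.385). The median log2 fold change of the 16 markers was 2.71. Of 10 endothelial markers 8 were higher, with sums of 6553 to 12745 in WT and 11230 to 25352 in rd6. Of 7 tested cone markers 1 was higher and 2 were lower, and none of 7 mural and stromal or 6 bipolar cell markers passed in limma. None of these markers was at 0 in all libraries, and the part of microglia and endothelium in the *Arl6* result was not tested. Of 16 RPE markers 5 were lower and 1 was higher, and 3 of the 5 did not overlap. *Rpe65*, *Lrat* and *Rgr*, which serve the retinoid cycle, fell by 0.79, 0.98 and 0.88 on the log2 scale, *Rlbp1* and *Kcnj13* fell by 0.46 and 0.40, and *Dct*, a pigment enzyme, rose by 0.59. The RPE sum ran from 1638847 to 2379501 in WT and from 1567314 to 2070241 in rd6 and was led by *Ttr*, which did not pass (log2 fold change 0.25; limma, q = 0.302), and *Rgr*. Their part in the *Arl6* result was not tested. *Best1*, another marker of the RPE, was at only 19.2 and 29.2 normalized counts. In such bulk samples fewer cells of a type and less RNA per cell cannot be told apart.

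None of the 7 genes of BBSome subunits passed the test, and in each the genotypes overlapped. *Bbs1*, which encodes the subunit that binds ARL6, had a minimum, median and maximum of 844, 1049 and 1144 in WT and 979.7, 1149 and 1246 in rd6. Its log2 fold change of 0.16 with a standard error of 0.08 did not pass (limma, q = 0.166). *Bbs4*, which encodes a subunit of tetratricopeptide repeats, ran from 644.8 to 790.3 in WT and from 731.5 to 880.4 in rd6, with medians of 726.5 and 775.9 and a log2 fold change of 0.14 ± 0.06 (SE; limma, q = 0.143). In each of these genes 3 rd6 libraries lay above the highest WT library and 3 lay within the WT range.

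*Ttc8*, also known as BBS8, and *Bbs2* gave the smallest differences. *Ttc8* had 816.4 to 960.5 normalized counts in WT (median 902.2) and 834.3 to 1033 in rd6 (median 886.4), and *Bbs2*, which encodes a β-propeller subunit of the core, had 614.5 to 716.9 (median 696.6) and 596.4 to 758.1 (median 688.4). Their log2 fold changes were 0.01 and 0.005 with standard errors of 0.06 each. The 95% interval of the fold ran from 0.91 to 1.10 for *Ttc8* and from 0.91 to 1.10 for *Bbs2*.

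*Bbs5*, *Bbs7* and *Bbs9* had the lowest counts of the 7. *Bbs5*, whose product binds phosphoinositides, ran from 244.6 to 295.6 in WT and from 245.1 to 342.8 in rd6 (medians 275.8 and 283.4), with a 95% interval of the fold from 0.92 to 1.20. *Bbs7*, which encodes a core subunit with BBS2 and BBS9, ran from 326.6 to 480.2 and from 352.9 to 436.1 (medians 386.4 and 375.5), with an interval from 0.87 to 1.18. *Bbs9* ran from 303.7 to 400.3 and from 336.2 to 424.4 (medians 343.3 and 360.3), with an interval from 0.95 to 1.21. The 3 log2 fold changes were 0.07, 0.02 and 0.10 (limma, q = 0.581, 0.92 and 0.425). With each library left out in turn, *Bbs5* ran from 0.02 without rd6 replicate 4 to 0.12 without rd6 replicate 1, and *Bbs9* from 0.06 without rd6 replicate 5 to 0.14, and neither passed. With the rod marker mean as a covariate the log2 fold changes moved to 0.05 for *Bbs1*, 0.21 for *Bbs4*, 0.04 for *Bbs5*, 0.19 for *Bbs7* and 0.24 for *Bbs9*, and none passed (limma, q from 0.0668 to 0.824).

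Both chaperonin-like genes had negative differences that did not pass. The counts of *Mkks* in WT were 598.6, 666.7, 739.5, 630.3, 935.5 and 973.5 for replicates 1 to 6, and those in rd6 were 644.3, 660.8, 738.3, 587.2, 466.8 and 555.7. WT replicates 5 and 6 stood above all other libraries, and the remaining WT libraries lay within or close to the rd6 range. *Mkks* had the widest spread of the 10 genes in WT, with a coefficient of variation of 21.2%, beside 6.39% for *Arl6*. Its log2 fold change was -0.30 with a standard error of 0.14 (limma, unadjusted p = 0.0497, q = 0.141). With the rod covariate *Mkks* stood at -0.48 (limma, q = 0.0571). *Bbs10* ran from 256.4 to 332.3 in WT (median 311.4) and from 235 to 340.9 in rd6 (median 264.5), with a log2 fold change of -0.12 ± 0.11 (SE; limma, q = 0.46). The value of *Bbs10* was -0.07 without rd6 replicate 2, -0.08 without rd6 replicate 5, -0.18 without rd6 replicate 4 and -0.20 with the rod covariate, and it passed in none of these. Of the exon bases of *Mkks*, 29.2% are shared with AL731706.1 on the same strand, and 172 bases are shared with *Slx4ip* on the opposite strand, which fell by 0.34 on the log2 scale (limma, q = 0.0133). Reads were counted with the standard settings of Rsubread, which do not use the strand, and counting by strand would not separate a stretch shared on the same strand, so that the values of *Mkks* are uncertain. Other shared stretches were 180 exon bases of *Mkks* with AL731706.2 on the same strand and 194 of *Bbs4* with *Adpgk* on the opposite strand. A further 55 exon bases of *Arl6*, 2.62% of its exons, are shared with 4930547E14Rik on the opposite strand. AL731706.1, AL731706.2 and 4930547E14Rik have no entry among the deposited genes, so how reads of these stretches were assigned is not known.

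**Figure D2:**
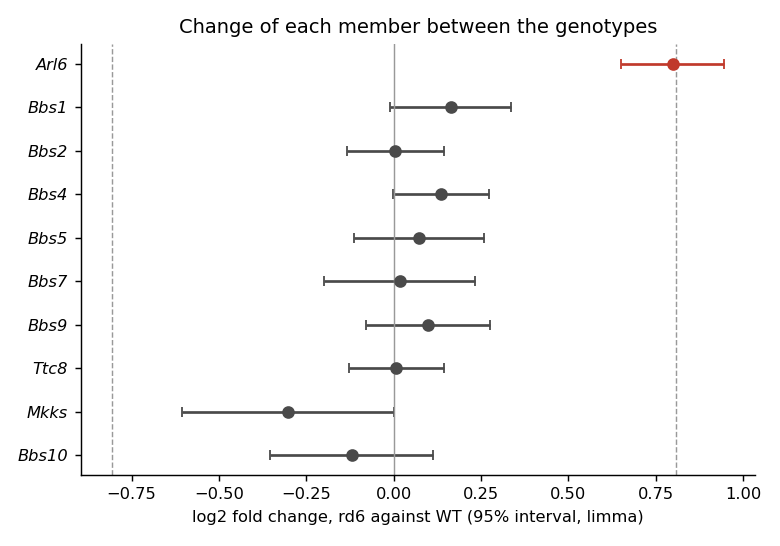
Log2 fold change of each gene in rd6 against WT with its 95% interval from limma (horizontal bars, n = 6 per genotype), with *Arl6* in red and dashed lines at the fold limit of the study, 0.81 in either direction. The interval of *Arl6* lies from 0.65 to 0.95, to the right of the intervals of the 9 other genes, of which that of *Bbs1* reaches highest, to 0.34.

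The intervals of the other 9 genes limit how much they could have changed. The highest upper bound among them was 1.26-fold, for *Bbs1*, and the lowest lower bound was 0.657-fold, for *Mkks*, whereas the lower bound of *Arl6* was 1.57-fold. A p-value that misses the limit does not show that the levels were equal.

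Per kilobase of exon, the scale on which levels of different genes can be compared, *Arl6* was the most abundant of the 10 in both genotypes. Its level was 340.6 ± 21.8 normalized counts per kilobase (SD, n = 6) in WT and 594 ± 53.9 in rd6, which placed it at percentile 75.4 and 84.8 of the 17743 tested genes with an exon length. Next in WT came *Ttc8* at 237.2, *Mkks* at 234.7 and *Bbs2* at 204.7 normalized counts per kilobase, and these 3 overlapped between libraries. *Bbs1* at 132.5, *Bbs4* at 119.8, *Bbs5* at 111.4 and *Bbs10* at 98.8 followed, each overlapping with its neighbour in the order. *Bbs7* at 71.6 and *Bbs9* at 55.4 normalized counts per kilobase were lowest. Among neighbours in the WT order, the libraries of *Arl6* and *Ttc8* and those of *Bbs2* and *Bbs1* did not overlap. The order in rd6 was the same except that *Bbs2* and *Mkks* changed places, at 205.7 and 188.7 normalized counts per kilobase.

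**Figure D3:**
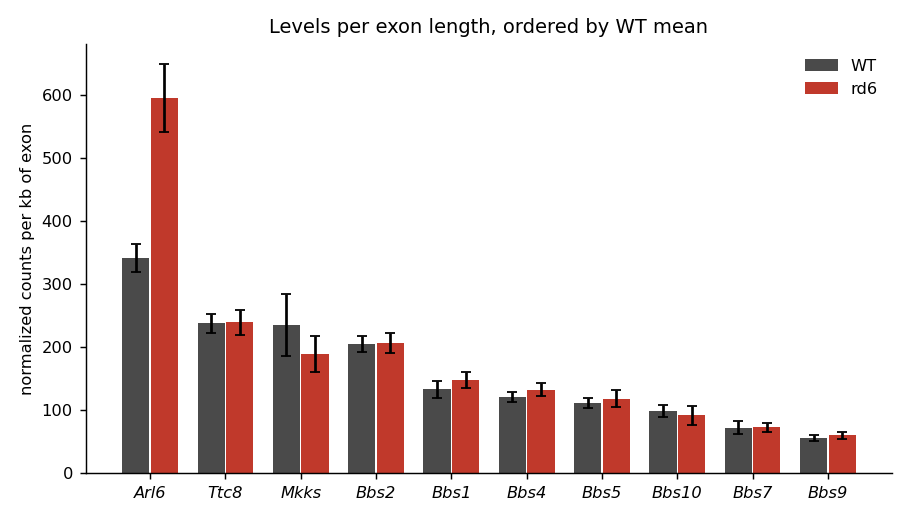
Mean normalized counts per kilobase of exon with SD (n = 6) in WT (grey) and rd6 (red), genes ordered by the WT mean on an axis from 0. *Arl6* stands highest in both genotypes, at 340.6 and 594, and *Bbs9* lowest, at 55.4 and 59.4.

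The proportion of *Arl6* to the subunits shifted with the genotype. The mean level of the 7 subunit genes was 133.2 ± 6.01 normalized counts per kilobase in WT and 139 ± 8.03 in rd6 (SD, n = 6). The ratio of *Arl6* to this mean ran from 2.25 to 2.84 in WT and from 3.83 to 4.59 in rd6, with means of 2.56 ± 0.203 and 4.27 ± 0.285. The ranges of the ratio did not overlap. The ratio rests on the same *Arl6* counts as the fold change and is given as a description.

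None of the 3 nearest tested genes on each side of *Arl6* passed the test in limma. By their starts, those on the lower side lay 122.2 to 885 kb away and those on the upper side 1764 to 3119 kb. On the lower side *Crybg3* was at 0.34 (SE 0.22, q = 0.3), *Riox2* at 0.08 (q = 0.292) and *Cldnd1* at 0.02 (q = 0.901) on the log2 scale. On the upper side *Gm9027* was at -0.43 (SE 0.15, q = 0.0592), *Gm9816* at 0.03 (q = 0.791) and *Nsun3* at -0.25 (SE 0.10, q = 0.0997). Over the 60 neighbours of all 10 genes, 5 (8.33%) were higher and 9 (15.0%) lower at q below 0.05, beside 11.4% and 11.6% of all genes tested. *Klhl41*, next to *Bbs5*, was the neighbour that passed together with the fold limit, at 182.2 ± 66.3 in WT and 332.8 ± 73 in rd6 (SD, n = 6; limma, q = 0.0286). It missed the q limit in 4 of 23 alternative analyses, among them those without rd6 replicate 1 (q = 0.0605) or rd6 replicate 2 (q = 0.0589), and without WT replicate 1 its log2 fold change was 0.68, under the fold limit. *Bbs4* and *Bbs9* lie on chromosome 9 together with *Mfrp*, at 15.2 and 21.6 Mb from it. *Mfrp* itself ran from 30132 to 45442 in WT and from 20442 to 29732 in rd6 (log2 fold change -0.63, SE 0.11; limma, q = 0.00126). The labels give the strain of the WT animals alone and do not say that the animals were littermates, so differences of strain and of genotype cannot be told apart. *Nnt*, a gene partly deleted in C57BL/6J, was under the limit for testing in both genotypes, at 4.43 to 9.29 normalized counts in WT and 2.06 to 14.9 in rd6.

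The other genes of the cilium were described from lists by function, and 14 of 107 tested were higher and 10 lower, which is 13.1% and 9.35%. These shares lay near those of all genes, 11.4% and 11.6%, and the median log2 fold change of the 107 genes was 0.006. The number higher was 9 without rd6 replicate 1 or without rd6 replicate 5, and the number lower was 6 without WT replicate 1. Of the genes named below, *Arl15*, *Ccdc28b*, *Dync2h1*, *Dync2li1*, *Ift27*, *Pcm1*, *Pkd2*, *Tmem67* and *Wdpcp* missed the limit in 9 to 15 of 23 alternative analyses, and *Arl5c* in 6 of 22.

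Among 11 partners of the BBSome, 3 were higher and 2 lower. *Ccdc28b*, a modifier of Bardet-Biedl syndrome, rose by 0.33 on the log2 scale (SE 0.10; limma, q = 0.0317), and *Ift27*, a small GTPase needed for BBSome exit from cilia, by 0.25 (SE 0.08, q = 0.0327). *Rab3ip*, which encodes the exchange factor Rabin8, fell by 0.26 (SE 0.07; limma, q = 0.0158), and *Pcm1*, a scaffold of centriolar satellites that brings BBS4 to them, fell by 0.22 (SE 0.07, q = 0.0301). The eighth subunit *Bbip1* stood at -0.03 (q = 0.737), the chaperonin-like *Bbs12* at -0.17 (q = 0.327) and *Lztfl1*, a regulator of BBSome entry, at 0.008 (q = 0.95). None of the 8 CCT chaperonin genes passed in limma, with a median log2 fold change of 0.035.

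Of 21 tested genes of the ARL family and its lipid-cargo carriers, 3 were higher and 1 was lower. *Arl11* was at 23.3 ± 9.81 normalized counts in WT and 57.9 ± 16.9 in rd6 (SD, n = 6; limma, q = 0.00754), with no overlap, and *Arl5c* at 15.6 ± 6.26 and 34.5 ± 13.1 (q = 0.0269). Both are scarce transcripts in these samples beside *Arl6*. With the rod marker mean as a covariate the log2 fold change of *Arl5c* moved from 1.14 to 1.86 (limma, q = 0.00123). *Arl15* rose by 0.29 on the log2 scale (SE 0.10; limma, q = 0.0485), and *Unc119*, a carrier of myristoylated cargo, fell by 0.30 (SE 0.08, q = 0.0202). *Arl3*, which releases that cargo in cilia, stood at -0.005 (q = 0.97), and *Arl13b*, the exchange factor of ARL3, at -0.19 (q = 0.205).

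Intraflagellar transport, the movement of particles along the cilium, holds the cilium gene with the largest change. *Ift57*, a peripheral subunit of the IFT-B particle (ENSMUSG00000032965, chr16:49699233-49765126, plus strand), was at 1459 ± 134 normalized counts in WT and 4757 ± 567 in rd6 (SD, n = 6). Its log2 fold change was 1.70 with a standard error of 0.08 (limma, q = 3.93e-08), and all rd6 libraries lay above all WT libraries. It starts 9.9 Mb from *Arl6* on the same chromosome. In all, 3 of 18 tested IFT-B genes were higher (*Ift57*, *Ift46* at 0.34 and *Ift27*) and 1 lower (*Traf3ip1* at -0.32), as was 1 of 7 IFT-A genes higher (*Tulp3*, an adaptor for ciliary receptors, at 0.34; q = 0.0138). Of 9 motor genes *Wdr34* (0.25) and *Dync2li1* (0.20) were higher and *Dync2h1*, the dynein heavy chain of return transport, was lower (-0.22; q = 0.0451). The promoter of *Ift57* is shown beside that of *Arl6* because it holds 2 matches to the X-box, which begin 87 and 60 bases before the start.
*Ift57*, chr16:49699044-49699343, plus strand: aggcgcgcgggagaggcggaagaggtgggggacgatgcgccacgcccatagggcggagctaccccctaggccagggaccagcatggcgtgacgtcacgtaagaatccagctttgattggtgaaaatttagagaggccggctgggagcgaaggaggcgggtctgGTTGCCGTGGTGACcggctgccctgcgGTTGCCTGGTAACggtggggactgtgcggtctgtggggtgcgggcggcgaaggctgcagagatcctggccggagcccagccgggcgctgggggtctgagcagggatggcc

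In the transition zone, the gate at the base of the cilium, and among further disease genes 3 of 26 were higher and 3 lower. *B9d2* and *B9d1*, which encode parts of one module of the gate, rose by 0.34 (SE 0.08; limma, q = 0.00878) and 0.32 (SE 0.08, q = 0.00914) on the log2 scale, and *Wdpcp* by 0.23 (q = 0.0419). *Rpgrip1*, which anchors RPGR in the connecting cilium of photoreceptors, fell by 0.76 (SE 0.18; limma, q = 0.00985), *Sclt1*, a centriole appendage gene, by 0.36 (q = 0.00691) and *Tmem67* by 0.24 (q = 0.0342). With the rod marker mean as a covariate *Rpgrip1* stood at -0.47 and no longer passed (limma, q = 0.123), and *B9d1* stood at 0.21 (q = 0.107), while *Pkd2*, given next, moved from -0.33 to -0.54 (q = 0.00309). Of 8 tested ciliary membrane proteins none was higher in limma and 2 were lower, *Ptch1*, the Hedgehog receptor, at -0.70 (SE 0.09, q = 0.000177) and *Pkd2*, a cation channel, at -0.33 (SE 0.10, q = 0.0389). Markers of motile cilia summed to 310 to 502.1 normalized counts in WT and 311.1 to 442.6 in rd6 over 7 genes, and of the 5 tested 1 was higher and 1 lower. *Foxj1*, the transcription factor of motile cilia, fell by 1.17 on the log2 scale with no overlap (SE 0.29; limma, q = 0.0123). *Dnah9*, an axonemal dynein, rose by 1.02 (SE 0.30; limma, q = 0.0266). Both were scarce, with WT and rd6 means of 29.6 and 12.6 normalized counts for *Foxj1* and 27.2 and 53.1 for *Dnah9*.

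**Figure D4:**
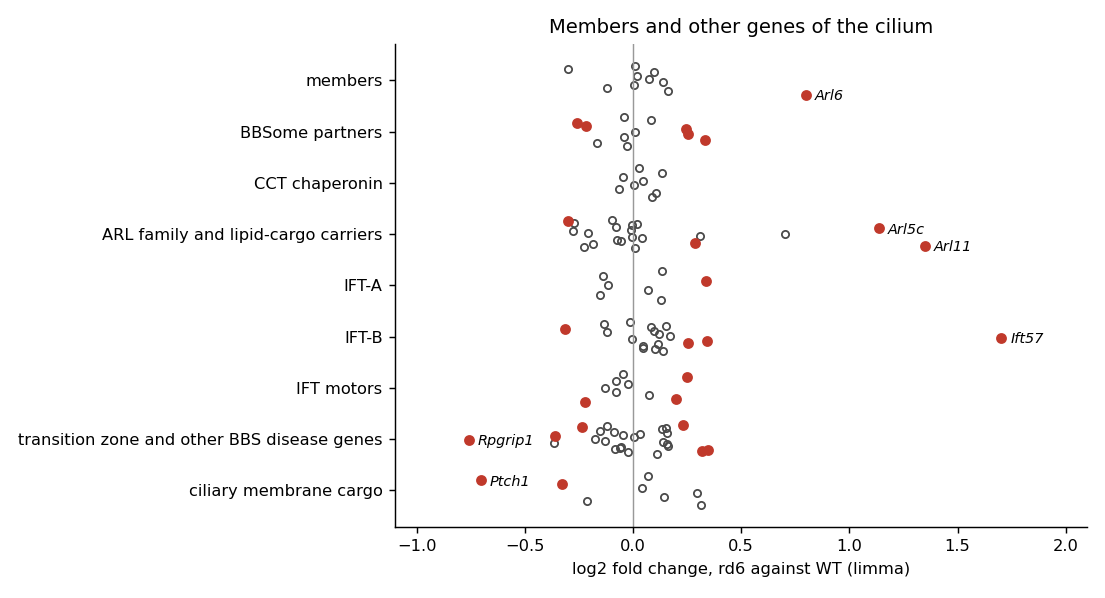
Log2 fold change in rd6 against WT (limma, n = 6 per genotype) of each tested gene of the member group and of 8 lists of cilium genes, with q below 0.05 as filled red points and the rest as open points. *Ift57* at 1.70, *Arl11* at 1.35 and *Arl5c* at 1.14 lie to the right of *Arl6* at 0.80, and *Rpgrip1* at -0.76 and *Ptch1* at -0.70 lie farthest to the left.

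The 5 genes whose log2 levels ran most like those of *Arl6* over the 12 libraries were *Dynlt1-ps1* (Pearson's r = 0.989), *Tent5c* (0.988), *Tmem119* (0.984), *Ift57* (0.983) and *Pfn2* (0.983). The 12 libraries form 2 genotypes, and a gene with a clear difference between them will have a high r over all of them. After the mean of each genotype was subtracted, the r with *Arl6* was 0.867, 0.789, 0.815, 0.699 and 0.719 in the same order. These genes were chosen for their r over all libraries, of which the part within genotypes is a component, so that these values are high by the choice and support nothing. Within a library all genes share 1 size factor. *Dynlt1-ps1*, a pseudogene of a dynein light chain, may share reads with its parent gene, and its values of 1316 ± 72.8 in WT and 2760 ± 190 in rd6 (SD, n = 6) are uncertain. *Tent5c*, a poly(A) polymerase gene, was at 1464 ± 121 and 3085 ± 251, *Tmem119*, one of the microglial markers above, at 149.8 ± 30.9 and 454.8 ± 73.7, and *Pfn2*, a profilin gene, at 3383 ± 217 and 5735 ± 432.

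The libraries held 28907262 to 33152725 reads counted on genes, and 3 reads correspond to 2.71 to 3.32 normalized counts, far under the level of every member. On the first principal component, which took 49.6% of the variance, WT replicate 4 stood far from the other WT libraries, at 85.12. Nearest to it were rd6 replicates 5 and 1, at 84.41 and 66.87. Replicate 5 of rd6 had a rod marker sum in the WT range, although 3 of its 19 rod markers lay below the WT range and 6 above it. The choice to leave out WT replicate 4 and rd6 replicate 5, and to keep rd6 replicate 1, was made after seeing the data. Without those 2 libraries *Arl6* had a log2 fold change of 0.75 (limma, q = 1.8e-05), and the other 9 genes again did not pass.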

How the data were processed

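RNA sequencing covered 6 WT and 6 rd6 RPE libraries, grouped by their labels. The authors aligned paired reads of stranded total-RNA libraries to mm10, counted them with Rsubread with standard parameters and divided them by DESeq2 size factors, with no versions given in the sources used here. The deposited signal is this normalized count per gene and library, and its mean. The deposited log2 fold changes, their standard errors and Wald statistics (scores) and the p-values come from the authors' DESeq2 run and were not used. All values were whole multiples of 1 read (100% within a tolerance of 1e-06), so reads were recovered. No 2 libraries were copies of each other, with a chi-square per gene of at least 9.24 in 66 pairs.

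Of 28596 entries 5 repeats were dropped. limma 3.58.1 (R 4.3.3, eBayes with trend, two-sided) was run on log2(value + 1) for genes whose mean reached 10, with genotype as the only term and Benjamini-Hochberg adjustment over all genes tested. Fold changes are on this scale and understate changes of low genes. It was tested on simulated data. p-values measure the spread between these libraries, 1 per label, and read floors cover counting error only. Coordinates and exon lengths are from GENCODE M21 (GRCm38), which has 28510 of the genes, and promoters from RefSeq (GRCm38.p6).

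Members and lists were chosen with earlier results of these data known. Named were the members, up to 3 genes per direction with the largest called change of each cilium list, the 5 genes most like *Arl6*, neighbours called past the study's fold limit, *Mfrp*, *Nnt* and the most abundant markers. *Bbip1*, *Bbs12*, *Lztfl1*, *Arl3*, *Arl13b*, *Crybg3*, *Riox2*, *Cldnd1*, *Gm9027*, *Gm9816*, *Nsun3*, *Slx4ip*, *Best1*, *Rpe65*, *Lrat*, *Rlbp1*, *Kcnj13*, *Dct*, *Foxj1* and *Dnah9* were added after their values were seen. A gene that this rule selects is not reported here. Alternatives were a pseudocount of 0.1 or 10, testing unfiltered genes or those reaching 10 in every library, TMM rescaling, DESeq2 1.42.0 and edgeR 4.0.16 (TMM or upper-quartile) on the recovered reads, a replicate block, the rod marker mean as a covariate and each library left out.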

Additional observations from a re-analysis of the deposited data

How the results depend on the processing

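In all 23 alternatives *Arl6* was higher at q below 0.05, with log2 fold changes from 0.75 to 0.84 and q from 1.87e-24 (DESeq2) to 0.000899 (replicate block), and it remained the member called, with 1 higher and 0 lower by limma, edgeR and DESeq2. It passed the study's fold limit (0.81 on the log2 scale) in 5 of them: edgeR with upper-quartile normalization (0.84) and without WT replicate 3 (0.81), WT replicate 5 (0.82), rd6 replicate 1 (0.84) or rd6 replicate 3 (0.81). *Mkks* ranged from -0.48 with the rod covariate (q = 0.0571) to -0.23. Differences near 0 changed sign and stayed above the limit: *Ttc8* was -0.041 with the rod covariate and -0.032 to 0.03 with each library left out, *Bbs2* -0.027 to 0.042 and *Bbs7* -0.029 to 0.082 with each left out, and *Bbs7* -0.003 without WT replicate 4 and rd6 replicate 5. The causes were not tested. Other cilium genes numbered 14 higher and 10 lower, against 8 higher and 8 lower with the replicate block, 9 higher and 15 lower with the rod covariate, and 16 higher and 6 lower with upper-quartile normalization, and ranges of 9 to 13 higher and 6 to 11 lower with each library left out. The lowest were 9 without rd6 replicate 1 or rd6 replicate 5, and 6 without WT replicate 1, fits that hold fewer libraries. Over all genes, upper-quartile normalization called 2376 higher and 1584 lower, against 2024 and 2062, and moved the median log2 fold change to 0.039. Same-numbered libraries share only a number: deviations of the 6 pairs correlated from -0.743 to 0.315, and the replicate block called 1453 higher and 1489 lower genes. Of the named cilium genes *Arl15*, *Ccdc28b*, *Dync2h1*, *Dync2li1*, *Ift27*, *Pcm1*, *Pkd2*, *Tmem67* and *Wdpcp* each lost their call in 9 to 15 alternatives, and *B9d1* in 2 (rod covariate, q = 0.107, and replicate block, q = 0.0556). *Rab3ip* (q = 0.0517) and *Tulp3* (q = 0.0585) lost theirs with the replicate block alone. *Klhl41* lost its call in 4 (q = 0.0851 with the replicate block).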
